A study of Homo sapiens with 27 samples.

Results

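The comparison described here is the difference between the transcriptional response of one MMP2 knockdown line to cell expansion and the response of its control line. Its members are 12 of the 27 RNA-seq libraries of the series, chosen by their labels: the control and sh2 lines, each at the subconfluent and the overconfluent stage, with 3 replicates per group. All were U2OS cells, an established human osteosarcoma line. The control line (labelled WT, pLKO.1) carried the blank lentiviral vector, and sh2 (labelled MMP2KD_26) carried the same vector with a short hairpin RNA against MMP2. Both were stable, puromycin-selected lines that were not stated to be clones, so that vector and selection were shared by all 12 libraries and the hairpin and the line cannot be told apart. Subconfluent cells (labelled Proliferating) were taken 2 days before confluence, and overconfluent cells (labelled OverConfluent) 2 days after it. The confluent libraries of both lines, taken between the 2 stages, and the second knockdown line sh1 (MMP2KD_23) are used only where they are named. The question addressed was whether a line with less MMP2 transcript took another transcriptional course as it grew past confluence.

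MMP-2 is a secreted zinc-dependent gelatinase that cleaves matrix proteins, and its activation at the cell surface depends on membrane-type MMPs and on TIMP-2. As adherent cells fill a culture dish they slow their division, deposit matrix, and consume nutrients and oxygen from the medium. Among the systems that respond to their surroundings are the BMP pathway, in which receptors phosphorylate SMAD1/5 and switch on the ID genes, the hypoxia-inducible factors that raise glycolytic genes, the SREBP factors that raise cholesterol synthesis when sterol is short, and ATF4, which raises amino acid synthesis and transport when amino acids are short. In bulk RNA from a culture, fewer cells expressing a gene and less RNA per cell cannot be told apart.

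The 12 libraries held 33778818 to 59374327 counts on genes (median 40211528). Mitochondrially encoded genes took 4.159 to 6.408% of them. Levels are given below as CPM, the count scaled for library depth, with TMM factors over all 27 libraries. The 10 mesenchymal and osteosarcoma markers summed to between 3494 and 4106 CPM in every group, with VIM, COL1A1 and SPARC high but COL1A2 and NT5E near 0. The 10 haematopoietic markers summed to 1.566 to 3.63 CPM, and the haemoglobin genes HBB and HBA1 were at 0. The 10 epithelial markers summed to 35.13 to 44.54 CPM, and the 7 endothelial markers found in the tables to 12.5 to 22.56 CPM.

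MMP2 (hg19, chromosome 16, 55423612 to 55540603, plus strand) was lower in sh2 than in control at both stages and rose with expansion in both lines. It stood at 222, 225.9 and 244 CPM in the subconfluent control libraries and at 504, 483 and 494 CPM in the overconfluent ones. In sh2 it stood at 135, 140 and 158 CPM and at 278, 291 and 269 CPM. No sh2 library reached the lowest control library of its stage. The log2 change of sh2 against control was -0.69 in subconfluent cells (adjusted p = 1.8e-10) and -0.82 in overconfluent cells (adjusted p = 1.1e-12), so the transcript was reduced but not removed. The expansion response itself was a log2 change of 1.08 in control and 0.96 in sh2. The difference between these responses was -0.12 (standard error 0.08, adjusted p = 0.43) by edgeR's quasi-likelihood test, and it did not pass the threshold under any setting tried. Among the other measured membrane-type MMPs and TIMPs, MMP24 fell less in sh2 and TIMP3 fell more, with differences of 0.53 (adjusted p = 0.0041) and -0.37 (adjusted p = 0.0077). TIMP1 was also lower (-0.29, adjusted p = 0.016), but its call was lost under the adjustments for GC content (-0.18) and transcript length (-0.21) and without control subconfluent replicate 1 (-0.26), control overconfluent replicate 2 (-0.27) or 3 (-0.24), or sh2 subconfluent replicate 3 (-0.22). The other 6 of 9 tested members did not pass the test, so that 1 was higher (11.1%) and 2 were lower (22.2%), beside 2.71% and 2.28% of all genes.

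Throughout, the expansion response is the log2 change from subconfluent to overconfluent cells, and the difference in response is the sh2 value minus the control value, so that 1 unit is a 2-fold greater rise or lesser fall in sh2. A gene is called where the Benjamini-Hochberg adjusted p of edgeR's quasi-likelihood test over all genes is under 0.05. Expansion itself changed most of the 20653 tested genes in both lines. In sh2 5510 rose (26.7%) and 5429 fell (26.3%), and in control 5278 rose (25.6%) and 5410 fell (26.2%). The difference in response was called for 1029 genes (4.98%), 559 of them higher in sh2 (2.71%) and 470 lower (2.28%). Only 134 of the 1029 passed a 2-fold difference, and the median size of a called difference was 0.46 on the log2 scale. An unadjusted p under 0.05 was found for 3794 genes.

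**Figure D1:**
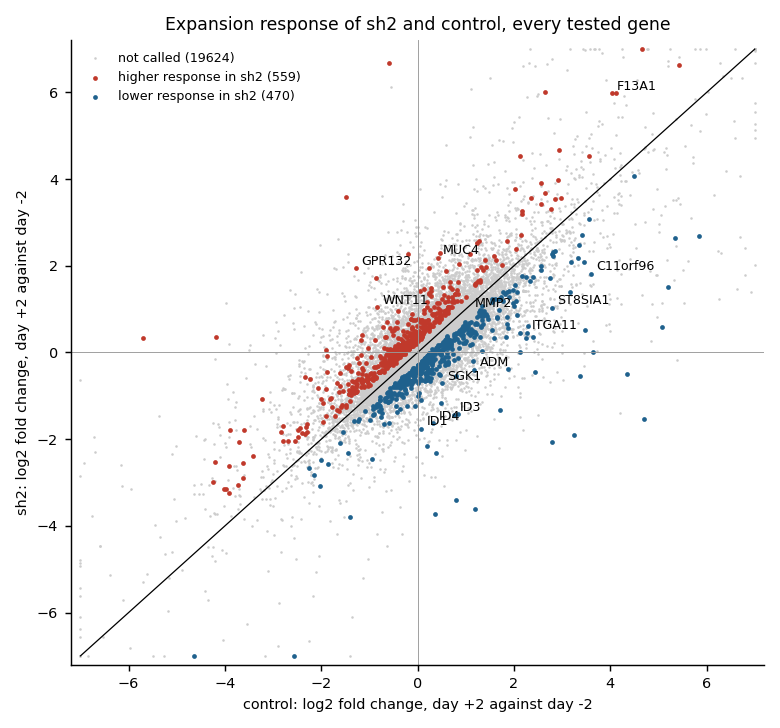
Expansion response of each tested gene, as the log2 change from subconfluent to overconfluent cells, in control (x axis) and sh2 (y axis), each from 3 libraries per stage. Genes with a called difference are coloured (559 higher in sh2 in red and 470 lower in blue, of 20653 tested) and values past the axes are drawn at their ends; most genes lie along the diagonal, and the ID genes lie below it.

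From subconfluent to overconfluent cells the general course of expansion was alike in size in the 2 lines. Among 1950 genes that rose over 2-fold in sh1, a line that entered neither response, the median response was 1.33 in control and 1.34 in sh2. Among 1175 genes that fell over 2-fold in sh1 the medians were -1.26 and -1.28. The mean log2 level of the first set minus that of the second gives each library a score. In subconfluent libraries this score was -2.19 to -2.13 in control and -2.31 to -2.22 in sh2. In overconfluent libraries it was 0.82 to 0.85 and 0.69 to 0.81. The lines lay furthest apart in confluent libraries, at -1.10 to -1.02 in control and -1.50 to -1.47 in sh2. A principal component carrying 86.63% of the variance of the 500 most variable genes separated the stages. The next component carried 2.406%, and on it the overconfluent control libraries lay between 5.06 and 10.53 and the overconfluent sh2 libraries between -10.81 and -7.17. The called differences were of all kinds. Of the genes higher in sh2, 218 fell less in sh2 than in control, 168 rose more, and 173 rose in sh2 where the control estimate fell. Of the genes lower in sh2, 153 fell more, 180 rose less, and 137 fell in sh2 where the control estimate rose. Opposite responses that both passed the test were found for 72 of the 1000 called genes with a mean level of at least 1 CPM, 41 of them rising in sh2.

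A difference in response can arise at either end. Sh2 differed from control in 2198 genes in subconfluent cells (10.6%) and in 1011 genes in overconfluent cells (4.90%). Of the 559 genes with a higher difference, 260 were called between the lines at the subconfluent stage alone, 183 at the overconfluent stage alone, 59 at both (55 of them with opposite signs) and 57 at neither. For the 470 genes with a lower difference these numbers were 190, 156, 40 (38 with opposite signs) and 84.

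The number of calls leaned on single libraries, and the calls moved with base composition and transcript length. Leaving out control overconfluent replicate 3 left 541 calls, and leaving out any other single library left 697 to 1214, 745 of them without sh2 subconfluent replicate 3. When genes with at least 1 CPM were split into 5 equal classes by the GC content of their transcripts, the median difference in response ran from 0.14 in the lowest class to -0.12 in the highest. In the lowest class 7.269% of genes were called higher and 0.3978% lower, against 1.989% and 6.329% in the highest. For each library the gap of the highest over the lowest GC class was taken relative to all 12. On the log2 scale it was 0.17, 0.15 and 0.41 in sh2 subconfluent replicates 1, 2 and 3. It was -0.08 to -0.01 in subconfluent control, -0.18 to -0.06 in overconfluent control and -0.23 to 0.03 in overconfluent sh2 libraries. Every subconfluent sh2 library thus lay above every library of the other groups, so the GC trend went with a group of the contrast. Without sh2 subconfluent replicate 3 the medians still ran from 0.10 to -0.06. Adjusting each gene for GC content gave 1018 calls among 16877 genes with a GC value. Of the 1029 main calls 992 had a GC value. All 992 kept their sign, but only 701 of them stayed called, so the 2 similar totals were in part made of different genes. The part of GC content in single genes was not tested beyond this adjustment, and the adjusted value is given where it ended a call. With the same genes split into 5 classes by transcript length, the median ran from -0.08 in the shortest class to 0.08 in the longest. In the shortest class 1.445% were called higher and 4.299% lower, against 7.567% and 1.991% in the longest.

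Large differences were found for the inhibitors of differentiation, the ID genes, which encode helix-loop-helix proteins that bind and disable differentiation factors and are direct targets of BMP signalling through SMAD1/5. All 4 fell with expansion in sh2, whereas in control ID2, ID3 and ID4 rose and ID1 did not pass the test. ID3 (chromosome 1, 23884417 to 23885992, minus strand) stood at 102, 104 and 92.1 CPM in subconfluent and at 152, 168 and 192 CPM in overconfluent control libraries. In sh2 it went from 116, 117 and 138 CPM to 50.3, 49.6 and 37.1 CPM. Subconfluent sh2 libraries thus lay above every subconfluent control library, and overconfluent ones below every library of the other 3 groups. The response of ID3 was 0.76 in control and -1.44 in sh2, a difference of -2.20 (standard error 0.12, adjusted p = 8.2e-15).

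ID1 (chromosome 20, 30193086 to 30194318, plus strand) was the most abundant of the family. It stood at 191, 205 and 174 CPM and then at 176, 191 and 241 CPM in control, and at 214, 228 and 250.4 CPM and then 71.2, 71.7 and 60.8 CPM in sh2. The control groups overlapped, and the overconfluent sh2 libraries lay apart from all others. The control response was 0.07 (adjusted p = 0.46), the sh2 response -1.76, and the difference -1.83 (standard error 0.11, adjusted p = 9.1e-14). ID4 (chromosome 6, 19837601 to 19842428, plus strand) went from 9.11, 10.4 and 9.66 CPM to 10.5, 12.6 and 13.7 CPM in control and from 12.3, 15.3 and 12.4 CPM to 5.13, 3.76 and 4.04 CPM in sh2. Its difference was -1.95 (standard error 0.19, adjusted p = 1.5e-08). ID2 (chromosome 2, 8818975 to 8824591, plus strand) went from 16.3, 15.5 and 17.8 CPM to 23.2, 27.04 and 25.7 CPM in control and from 17.5, 16.8 and 17.1 CPM to 13.2, 14.9 and 14.3 CPM in sh2, which left its overconfluent sh2 libraries below all the rest. The difference of ID2 was -0.87 (standard error 0.13, adjusted p = 4.2e-05). These 4 calls held without any single library and under all 9 other settings.

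**Figure D2:**
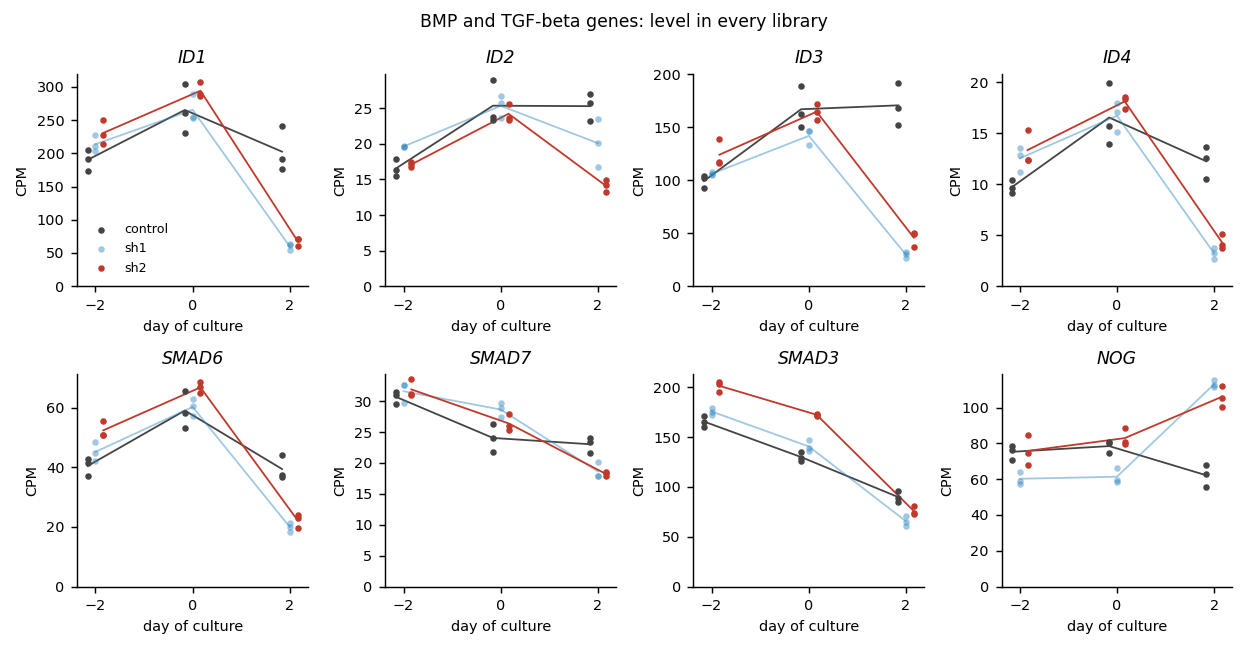
Level in CPM (y axis, from 0) of 8 genes of BMP and TGF-beta signalling against the day of culture (-2 subconfluent, 0 confluent, 2 overconfluent) in control (black), sh2 (red) and sh1 (pale blue), with points for the 3 replicates and lines through the group means. The overconfluent sh2 libraries lie below the overconfluent control libraries for the ID genes and SMAD6, and above them for NOG.

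Other members of the pathway moved as well. SMAD6, an inhibitory SMAD that BMP signalling itself induces, went from 37.1, 42.9 and 41.3 CPM to 36.6, 37.5 and 44.2 CPM in control, which overlapped, and from 50.8, 50.8 and 55.6 CPM to 24.03, 23.1 and 19.6 CPM in sh2. Its difference was -1.18 (standard error 0.12, adjusted p = 1.9e-08). NOG (noggin), a secreted protein that binds BMPs and keeps them from their receptors, moved the other way. It went from 70.8, 76.2 and 78.7 CPM to 67.9, 62.7 and 55.9 CPM in control and from 74.4, 67.98 and 84.9 CPM to 105, 112 and 100.4 CPM in sh2, so that the overconfluent sh2 libraries exceeded all others. NOG fell in control by 0.29 on the log2 scale and rose in sh2 by 0.49, a difference of 0.78 (standard error 0.10, adjusted p = 3.7e-06). SMAD3, a receptor-activated SMAD of the TGF-beta branch, fell in both lines and more in sh2 (-0.51, adjusted p = 7.5e-05). LTBP3, which holds latent TGF-beta in the matrix, rose in both and less in sh2 (-0.54, adjusted p = 0.0012). SMAD7, the other inhibitory SMAD, had a difference of -0.37 (adjusted p = 0.046), a call that was lost without any 1 of the 12 libraries (-0.40 to -0.32) and with the GC adjustment (-0.27). In all, 8 of 25 tested genes of TGF-beta and BMP signalling were lower (32%, beside 2.28% of all genes) and 1 was higher. The list's median difference was 0.01, since the other 16 lay on both sides of 0. The lower count was 7 without each library, and NOG was joined by 1 more member without control overconfluent replicate 1 or sh2 overconfluent replicate 2. With the GC adjustment 7 were lower and 2 higher. The SMAD1/5 GC-rich element, spelled GGCGCC, was searched in the 250 bases upstream of the RefSeq start. It was found for 6 of 23 list members with such a window, beside 16.1% of all 27305 windows. Among the 8 called members with a window it was found for 1, SMAD3.

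Every glycolytic or hypoxia-responsive gene with a called difference was lower in sh2, some falling more and others rising less or falling where control rose. Of 34 tested genes 13 were lower (38.2%, beside 2.28% of all genes) and none was higher by edgeR. At an unadjusted p under 0.05 22 were lower and 0 higher, and DESeq2 called 17 lower and 0 higher. The median difference was -0.31, against 0.0037 over all tested genes, with a median response of -0.04 in control and -0.47 in sh2. In control 15 of the 34 rose and 16 fell, and in sh2 5 rose and 20 fell. The genes lay at several points of the pathway. HK2 (hexokinase 2), which traps glucose in the cell, went from 34.2, 33.7 and 32.9 CPM to 31.00, 42.96 and 47.1 CPM in control and from 32.3, 37.4 and 33.4 CPM to 22.4, 20.3 and 22.9 CPM in sh2. The overconfluent sh2 libraries were below the other 9 libraries of the comparison. Its difference was -0.90 (standard error 0.14, adjusted p = 5.5e-05).

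ADM (adrenomedullin), a vasodilator peptide gene induced by hypoxia, rose in control, from 3.06, 3.97 and 3.62 CPM to 7.75, 7.01 and 9.51 CPM. In sh2 it went from 4.12, 3.80 and 4.55 CPM to 3.17, 3.08 and 3.18 CPM, and its difference was -1.57 (standard error 0.24, adjusted p = 5.1e-05). EGLN3, a prolyl hydroxylase that marks hypoxia-inducible factors for destruction and is itself induced by them, went from 3.50, 3.59 and 3.33 CPM to 4.09, 7.65 and 6.51 CPM in control and from 4.38, 3.46 and 4.09 CPM to 2.66, 2.85 and 2.65 CPM in sh2. It rose in control (0.79) and fell in sh2 (-0.54), a difference of -1.34 (standard error 0.28, adjusted p = 0.0023). BNIP3, a mitophagy receptor, went from 42.2, 47.4 and 41.1 CPM to 21.1, 26.4 and 30.8 CPM in control and from 45.8, 45.97 and 45.7 CPM to 16.6, 14.8 and 17.3 CPM in sh2. BNIP3 fell in both lines, and further in sh2, with a difference of -0.74 (standard error 0.13, adjusted p = 0.00035). SLC2A3, a glucose transporter, rose in both lines but less in sh2 (-0.54, adjusted p = 1.6e-05). PFKFB4, which sets the level of the activator of phosphofructokinase, and NDRG1 rose in control and did not pass the test in sh2, with differences of -0.75 (adjusted p = 0.0023) and -0.49 (adjusted p = 0.0017). Among the enzymes of the glycolytic chain the differences were smaller. They were -0.38 for ALDOA (adjusted p = 0.0018), -0.91 for ALDOC (adjusted p = 0.0088), -0.34 for PGK1 (adjusted p = 0.004), -0.46 for ENO2 (adjusted p = 0.0015), -0.31 for GPI (adjusted p = 0.01) and -0.30 for LDHA (adjusted p = 0.018). LDHA lost its call without 5 of the 12 libraries (-0.36 to -0.24 over the 12), ALDOC without control overconfluent replicate 3 (-0.69), and GPI without control overconfluent replicate 2 or 3 (-0.27 each). Over the whole list 10 to 19 members stayed lower without each library, and 15 were lower with the GC adjustment. VEGFA, the angiogenic factor, and SLC2A1, the main glucose transporter, did not pass the test (0.14 and -0.05).

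Hypoxia-inducible factors bind a core of RCGTG in the DNA of their targets, where R is A or G. In the 250 bases upstream of the RefSeq start (GRCh38.p14), searched on both strands, ACGTG or GCGTG was found for 20 of 30 list members with a window and for 10 of the 11 called members with one, beside 43.1% of all 27305 windows. A match describes the letters of the window and does not show a site in use. Windows are shown for some of the called members with a match, chosen among those with larger differences, with the core in capitals on either strand. They were thus picked by the match as well as by size. EGLN3 (-1.34) was not among the members with a match. The windows lie at chr2:74834027-74834126, plus strand (HK2), chr11:10304927-10305026, plus strand (ADM), chr10:131981973-131982072, minus strand (BNIP3) and chr17:28576896-28576995, minus strand (ALDOC).
HK2: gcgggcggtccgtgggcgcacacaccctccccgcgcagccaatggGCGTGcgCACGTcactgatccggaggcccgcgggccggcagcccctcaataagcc
ADM: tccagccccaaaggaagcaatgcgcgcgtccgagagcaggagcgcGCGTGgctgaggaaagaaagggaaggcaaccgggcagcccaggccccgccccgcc
BNIP3: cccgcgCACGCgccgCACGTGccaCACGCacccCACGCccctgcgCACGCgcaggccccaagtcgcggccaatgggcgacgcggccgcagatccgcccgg
ALDOC: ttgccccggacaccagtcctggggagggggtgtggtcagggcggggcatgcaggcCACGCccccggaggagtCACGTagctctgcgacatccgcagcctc

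Most enzymes of cholesterol synthesis fell with expansion in both lines, and the called differences were all higher in sh2. Of 20 enzymes 19 fell in control and 18 in sh2, and the median response was -0.96 in control and -0.67 in sh2. The difference was higher for 7 (35%, beside 2.71% of all genes) and lower for none by edgeR, with a median of 0.23. At an unadjusted p under 0.05 12 were higher and 0 lower, and DESeq2 called 7 higher and 0 lower. SQLE (squalene epoxidase, an oxygen-using and rate-setting step) went from 222.8, 215 and 217 CPM to 84.3, 92.3 and 75.2 CPM in control and from 209, 198 and 199 CPM to 104, 101 and 117 CPM in sh2. Both lines fell, and the overconfluent libraries of the 2 lines did not overlap. The difference for SQLE was 0.48 (standard error 0.09, adjusted p = 0.00046). HMGCS1, which makes HMG-CoA, had a difference of 0.40 (adjusted p = 0.0035), and MSMO1, a demethylation step, 0.54 (adjusted p = 0.0014). CYP51A1 (1.10, adjusted p = 0.01), DHCR7 (0.27, adjusted p = 0.039) and IDI1 (0.50, adjusted p = 0.025) were higher as well. DHCR7 lost its call under median-of-ratios scaling and without 7 of the 12 libraries (0.24 to 0.29). IDI1 lost its call with the GC adjustment (0.41) and without control subconfluent replicate 1 (0.50), control overconfluent replicate 3 (0.40), sh2 subconfluent replicate 3 (0.47) or sh2 overconfluent replicate 2 (0.49). The count was 5 to 7 without each library and 10 with the GC adjustment.

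Among genes that sense, carry and export sterol, 4 of 14 tested were higher (28.6%, beside 2.71% of all genes) and 1 was lower (7.14%, beside 2.28%), with a list median of -0.04. At an unadjusted p under 0.05 5 were higher and 4 lower, DESeq2 called 4 and 3, and the lower count was 2 without control subconfluent replicate 2, control overconfluent replicate 1, sh2 subconfluent replicate 1 or sh2 overconfluent replicate 3. INSIG1, which holds SREBP in the endoplasmic reticulum and is itself an SREBP target, went from 48.7, 48.2 and 55.8 CPM to 22.8, 24.3 and 22.9 CPM in control and from 41.9, 44.1 and 39.9 CPM to 30.01, 30.2 and 34.5 CPM in sh2. The lines did not overlap at either stage, sh2 being lower before expansion and higher after it, and the difference was 0.73 (standard error 0.11, adjusted p = 3.8e-05). STARD4, a cytosolic sterol carrier, fell in control and rose in sh2 (0.53, adjusted p = 0.00021). ABCA1, a cholesterol exporter that is not an SREBP target, rose in both and more in sh2 (1.07, adjusted p = 0.024). The ABCA1 call was lost without 5 of the 12 libraries (0.84 to 1.00). NPC2, which hands cholesterol out of the lysosome, rose in both and less in sh2 (-0.46, adjusted p = 7.2e-05). Of 15 genes of fatty acid synthesis 3 were higher (20%), with SCD, the stearoyl-CoA desaturase, at 0.53 (standard error 0.07, adjusted p = 7e-06). The others were ACSL3 at 0.40 (adjusted p = 0.0014) and ME1 at 0.38 (adjusted p = 0.0482). ME1 was not called under median-of-ratios scaling, with the GC adjustment (0.26) or without 8 of the 12 libraries (0.33 to 0.40). FASN and ACLY fell in both lines and their differences did not pass the test (0.08 and -0.05). The sterol regulatory element as spelled TCACNCCAC was found in none of the 15 windows of cholesterol enzymes and in 1 of 12 windows of the sterol group (SREBF2), beside 0.875% of all windows.

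**Figure D3:**
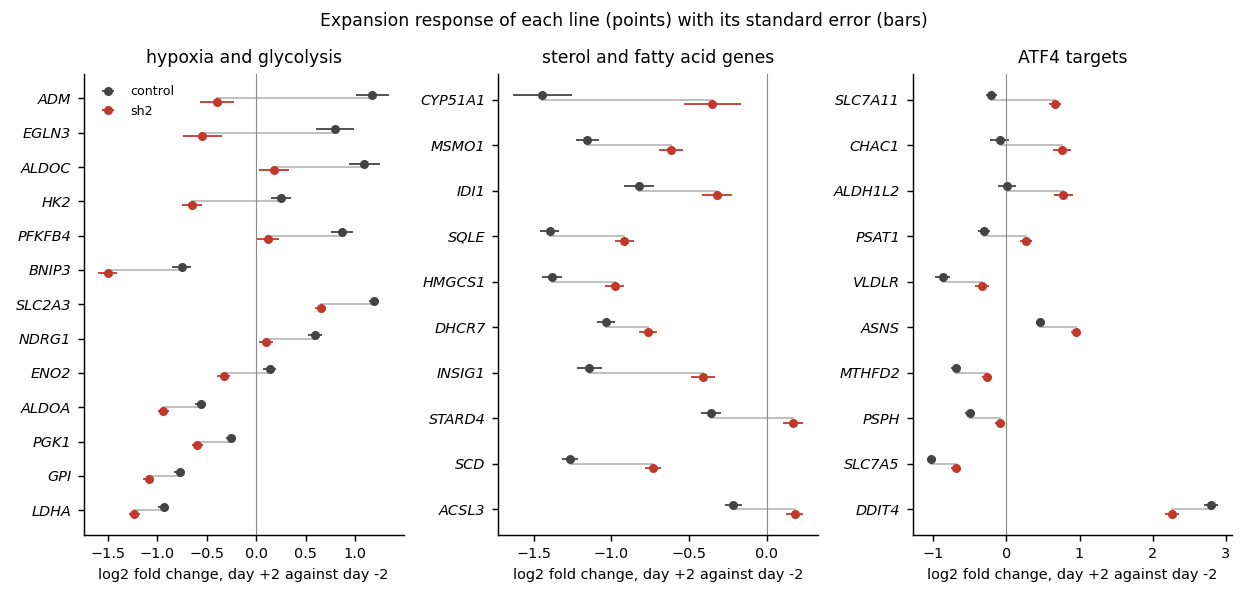
Expansion response (x axis, log2 change from day -2 to day +2) in control (black) and sh2 (red) of genes with a called difference, with bars for the standard error of the fit (3 libraries per group), for hypoxia and glycolysis, sterol and fatty acid genes, and ATF4 targets. The sh2 point lies to the left of control for all 13 hypoxia and glycolysis genes and to the right for the sterol and fatty acid genes and the ATF4 targets, DDIT4 excepted.

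Among the targets of ATF4, 9 of 23 tested genes were higher in sh2 (39.1%, beside 2.71% of all genes) and 1 was lower (4.35%, beside 2.28%), with a median difference of 0.27 and a median response of -0.20 in control and 0.27 in sh2. SLC7A11, the cystine transporter, stood at 55.2, 53.2 and 51.4 CPM and then at 55.8, 44.1 and 41.1 CPM in control, and at 42.4, 42.8 and 47.6 CPM and then 64.6, 70.01 and 75.1 CPM in sh2. The fitted change was a fall in control, where the 2 stages overlapped, and a rise in sh2. The difference of SLC7A11 was 0.86 (standard error 0.11, adjusted p = 3.5e-06). CHAC1, which degrades glutathione, stood at 7.36, 7.02 and 6.53 CPM and then at 7.23, 7.11 and 5.62 CPM in control, and at 7.74, 8.30 and 9.80 CPM and then 16.3, 13.9 and 13.4 CPM in sh2. The overconfluent sh2 libraries lay above the other 9. The difference for CHAC1 was 0.85 (standard error 0.18, adjusted p = 0.0034). ASNS (asparagine synthetase) rose in both lines, from 102, 101 and 93.4 CPM to 147, 142 and 124 CPM in control and from 89.7, 95.1 and 92.6 CPM to 172, 169 and 194 CPM in sh2, and its difference was 0.49 (standard error 0.09, adjusted p = 0.00038). The enzymes of serine synthesis PSAT1 and PSPH had differences of 0.57 (adjusted p = 0.0012) and 0.42 (adjusted p = 0.0068). In mitochondrial folate metabolism MTHFD2 and ALDH1L2 had differences of 0.42 (adjusted p = 0.0051) and 0.78 (adjusted p = 0.0055). The amino acid transporter SLC7A5 had a difference of 0.33 (adjusted p = 0.01). VLDLR had 0.54 (adjusted p = 0.015), which was lost without control overconfluent replicate 3 (0.49). The lower one was DDIT4, an inhibitor of mTORC1 that other stress factors also induce, at -0.54 (adjusted p = 0.0081). ATF4 itself, which is controlled mainly in translation, had a difference of 0.08 (adjusted p = 0.6), DDIT3 of -0.24 (adjusted p = 0.58) and TRIB3 of 0.33 (adjusted p = 0.0544). The higher count was 8 to 13 without each library and 15 with the GC adjustment, and the lower count was 2 without control subconfluent replicate 3. In the list of 15 endoplasmic reticulum chaperones and unfolded protein response genes, 2 were higher (13.3%), HERPUD1 (0.41, adjusted p = 0.0082) and HSP90B1 (0.25, adjusted p = 0.022), the latter not without control subconfluent replicate 3 (0.22) or control overconfluent replicate 2 (0.25) or 3 (0.26), nor with the GC adjustment (0.14).

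The C/EBP-ATF response element, spelled TGATGNAA and searched on both strands, was found in 2 of 18 windows of the list, ASNS and CHAC1, beside 3.19% of all windows. Both were among the 7 called genes with a window. The windows are shown with the match in capitals, ASNS at chr7:97872422-97872521, minus strand and CHAC1 at chr15:40953221-40953320, plus strand, where the match is on the opposite strand.
ASNS: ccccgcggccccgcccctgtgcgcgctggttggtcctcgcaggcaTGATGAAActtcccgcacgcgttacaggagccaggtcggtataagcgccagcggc
CHAC1: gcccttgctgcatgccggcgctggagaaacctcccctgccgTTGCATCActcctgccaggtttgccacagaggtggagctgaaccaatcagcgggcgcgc

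The 12 highest differences among called genes with a mean level of at least 1 CPM were mostly of genes with low levels. GPR132, a proton-sensing receptor, fell in control from 6.30, 9.05 and 6.07 CPM to 3.66, 3.09 and 2.16 CPM and rose in sh2 from 1.22, 1.18 and 0.922 CPM to 5.01, 4.56 and 3.32 CPM. Its subconfluent levels lay apart in the 2 lines and its overconfluent levels overlapped, and the difference was 3.23 (standard error 0.31, adjusted p = 1.5e-08). F13A1, the A subunit of the cross-linking enzyme factor XIII, was the best expressed of the group. It rose from 3.08, 3.38 and 2.47 CPM to 56.4, 51.9 and 41.1 CPM in control and from 0.982, 1.06 and 1.18 CPM to 67.9, 61.5 and 73.4 CPM in sh2. The lines did not overlap at either stage and changed order between them, with a difference of 1.95 (standard error 0.19, adjusted p = 1.9e-08). WNT11, a non-canonical WNT ligand, fell in control from 5.94, 4.07 and 6.04 CPM to 3.20, 3.09 and 2.80 CPM and rose in sh2 from 2.61, 2.24 and 1.96 CPM to 4.84, 4.04 and 5.23 CPM, a difference of 1.89 (standard error 0.28, adjusted p = 2.6e-05). MUC4, a membrane mucin, rose from 3.93, 3.21 and 4.05 CPM to 4.84, 5.38 and 4.93 CPM in control and from 2.08, 2.12 and 1.70 CPM to 8.45, 8.96 and 9.65 CPM in sh2, a difference of 1.77 (standard error 0.23, adjusted p = 5.5e-06). CSF2, the growth factor GM-CSF, did not pass the test in control and rose in sh2, and its difference of 1.82 (adjusted p = 0.019) was lost by DESeq2 and without sh2 subconfluent replicate 2 (1.60) or sh2 overconfluent replicate 2 (1.63).

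The remainder of the 12 were lower or less steady. PRSS1 (trypsinogen, whose reads are shared with near-identical copies and are uncertain for that reason) had 10 counts in the subconfluent and 222 in the overconfluent control libraries, and 1 and 545 in sh2. These give a 25.7-fold rise in control (95% interval 13.7 to 54.4) and a 545-fold rise in sh2 (97.3 to 21552), intervals that cover counting error only. Its call was lost without 9 of the 12 libraries (2.59 to 4.06). RASSF6 had a difference of 2.41 (adjusted p = 0.014), which was lost by DESeq2 and without control subconfluent replicate 1 (1.84). LRRN4 had 1.95 (adjusted p = 0.02), lost by DESeq2 and without control overconfluent replicate 2 (1.68) or sh2 overconfluent replicate 1 (1.44). PRND, a prion-related protein, had 1.87 (adjusted p = 0.0051), not called in the fit of all 27 libraries. Its subconfluent levels were near the floor, at 0.479, 0.102 and 0.058 CPM in sh2 and 0.554, 0.969 and 1.18 CPM in control. Its overconfluent levels overlapped, at 12.3, 14.4 and 14.5 CPM in sh2 and 15.2, 15.9 and 14.4 CPM in control. C8orf46 had 1.81 (adjusted p = 0.00073). CTC-436P18.3 had 2.10 (adjusted p = 5.5e-05) and RP11-125B21.2 1.80 (adjusted p = 0.032), the latter not called by DESeq2 or without 8 of the 12 libraries (1.52 to 1.78). Neither of these could be fitted in the GC adjustment, for want of a GC value, nor could CTC-459F4.1 below.

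Among the 12 lowest differences were ID1, ID3 and ID4. C6orf99, a long noncoding RNA, went from 438 to 15 counts over the control libraries, a 25.2-fold lower level. Over the sh2 libraries it went from 557 to 0 counts, at least 185.8-fold lower against a floor of 3 counts over the group. Its overconfluent control libraries stood at 0, 0.222 and 0.146 CPM, so that 1 of them was as empty as those of sh2. C11orf96 rose from 2.60, 2.65 and 2.96 CPM to 30.4, 35.4 and 34.2 CPM in control and from 4.86, 4.21 and 4.38 CPM to 14.5, 18.5 and 14.2 CPM in sh2, and the lines changed order between the stages. The difference of C11orf96 was -1.79 (standard error 0.17, adjusted p = 1.5e-08). ST8SIA1, the sialyltransferase that makes ganglioside GD3, rose from 2.35, 3.12 and 3.28 CPM to 20.8, 19.4 and 20.4 CPM in control and from 4.53, 3.66 and 4.21 CPM to 9.15, 8.25 and 7.84 CPM in sh2, a difference of -1.76 (standard error 0.19, adjusted p = 1.5e-07). ITGA11, the alpha chain of a collagen-binding integrin, rose from 1.30, 1.02 and 1.52 CPM to 6.14, 5.68 and 6.78 CPM in control and from 2.66, 2.62 and 3.49 CPM to 4.33, 4.09 and 3.56 CPM in sh2. The groups did not overlap, sh2 being higher before expansion and lower after it, with a difference of -1.80 (standard error 0.28, adjusted p = 7.2e-05).

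DHRS3, a retinaldehyde reductase induced by retinoic acid, rose in control and did not pass the test in sh2 (-1.92, adjusted p = 7.6e-05). RSPO3, a secreted amplifier of WNT signalling, did the same (-2.03, adjusted p = 0.0043). PDE3A, a cyclic nucleotide phosphodiesterase, rose less in sh2 (-1.77, adjusted p = 0.011), a call lost without control overconfluent replicate 3 (-1.63). GRIN2A, an NMDA receptor subunit, fell more in sh2 (-2.38, adjusted p = 0.016), a call lost by DESeq2 and without control overconfluent replicate 1 (-1.81). Among genes with opposite called responses, ordered by size and beside GPR132, WNT11, ID3, ID4 and EGLN3, the higher ones were CTC-459F4.1 (1.34, adjusted p = 3.9e-07), RP11-782C8.2 (1.14, adjusted p = 0.02) and COX10-AS1 (1.04, adjusted p = 0.027). The last was not called with the GC adjustment (0.92) or without 5 of the 12 libraries (0.84 to 1.03). RP11-782C8.2 was not called without control subconfluent replicate 3 (1.05), control overconfluent replicate 3 (1.06) or sh2 overconfluent replicate 2 (1.00). The lower ones were BPIFB4 (-1.64, adjusted p = 0.00013) and SGK1. SGK1, a kinase induced by serum and glucocorticoids, went from 16.5, 17.2 and 16.4 CPM to 23.4, 25.6 and 22.9 CPM in control and from 19.4, 23.4 and 20.7 CPM to 11.9, 13.03 and 14.1 CPM in sh2, a difference of -1.21 (standard error 0.13, adjusted p = 1.3e-07).

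**Figure D4:**
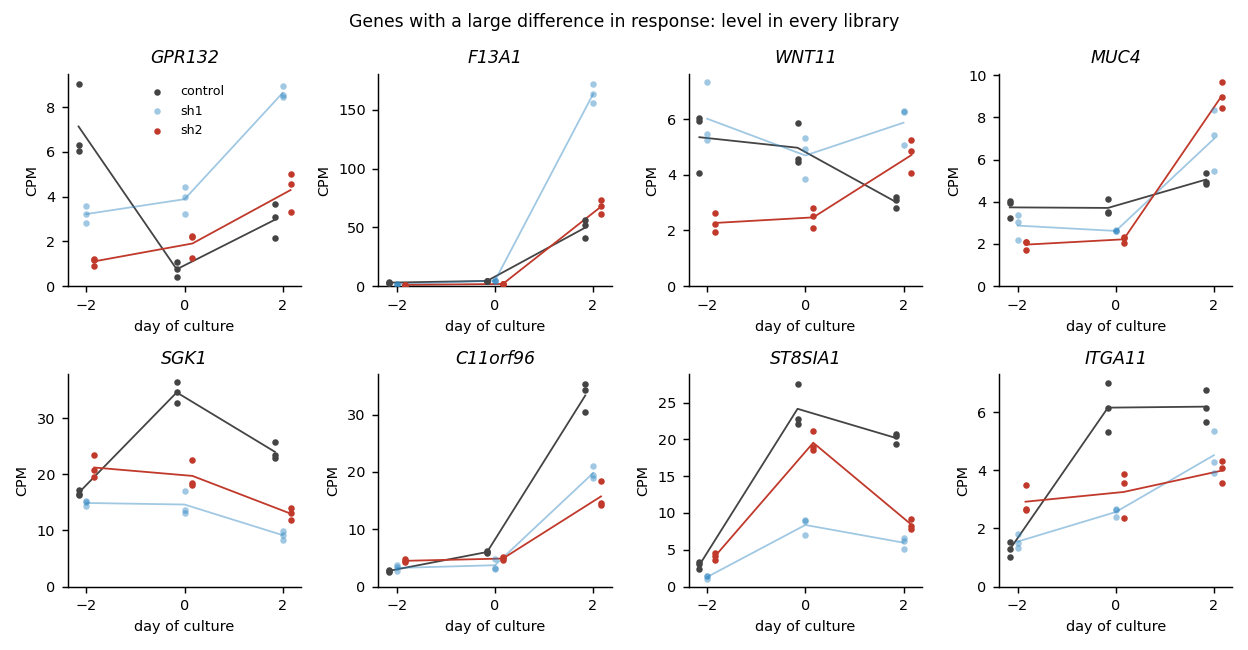
Level in CPM (y axis, from 0) of 8 genes with large differences in response against the day of culture (-2 subconfluent, 0 confluent, 2 overconfluent) in control (black), sh2 (red) and sh1 (pale blue), with points for the 3 replicates and lines through the group means. From day -2 to day 2 GPR132 and WNT11 fall in control and rise in sh2, and SGK1 rises in control, with its highest level at day 0, and falls in sh2.

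Genes of the matrix were called in both directions. TGFBI, a matrix protein induced by TGF-beta, fell from 181, 171 and 172 CPM to 40.99, 45.1 and 49.6 CPM in control and from 196, 188 and 202 CPM to 86.5, 81.1 and 94.4 CPM in sh2. It was the matrix gene with the smallest adjusted p (0.80, standard error 0.09, adjusted p = 1.4e-07), and its overconfluent levels lay apart in the 2 lines. TNC (tenascin C) had a difference of 0.39 (adjusted p = 0.012), lost without control overconfluent replicate 3 (0.34), and EFEMP2, needed for elastic fibres, of -0.52 (adjusted p = 0.00046). In all 3 of 28 matrix glycoproteins were higher (10.7%, beside 2.71% of all genes) and 3 lower (10.7%, beside 2.28%). Without control overconfluent replicate 3 the counts were 1 and 1, and without control subconfluent replicate 1 the lower count was 1. Of 29 collagens and collagen-modifying enzymes 1 was higher (3.45%) and 4 were lower (13.8%). LOXL4, a lysyl oxidase, was the higher one (0.38, adjusted p = 0.0015). LOXL2 (-0.38, adjusted p = 0.0014), COL3A1 (-0.41, adjusted p = 0.029), COL18A1 (-0.52, adjusted p = 0.0495) and the hypoxia-induced prolyl hydroxylase P4HA1 (-0.37, adjusted p = 0.034) were lower, a count of 4 that was 1 without control subconfluent replicate 1 or 2, control overconfluent replicate 3, sh2 subconfluent replicate 2 or 3 or sh2 overconfluent replicate 3, and 2 without sh2 overconfluent replicate 1. With any single library left out the lower count was at most 3. The calls of COL18A1 (-0.56 to -0.34), COL3A1 (-0.42 to -0.31) and P4HA1 (-0.38 to -0.26) were each lost in several of these omissions. COL3A1 and COL18A1 were not called in the fit of all 27 libraries, nor COL18A1 with the GC adjustment (-0.40).

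Among extracellular proteases and their inhibitors 5 of 25 were higher (20%, beside 2.71% of all genes) and 2 lower (8%, beside 2.28%). ADAMTS6, a secreted metalloprotease, fell from 36.2, 35.4 and 36.2 CPM to 11.8, 11.8 and 12.3 CPM in control and from 26.2, 26.6 and 20.98 CPM to 18.4, 16.1 and 19.1 CPM in sh2. The lines changed order without overlap, and the difference was 1.14 (standard error 0.13, adjusted p = 4.1e-07). ADAM12 (0.52, adjusted p = 0.0017), PLAU (urokinase, 0.41, adjusted p = 0.0056), ADAM9 (0.33, adjusted p = 0.012) and ADAM10 (0.28) were higher, of which ADAM9 and ADAM10 were lost without control overconfluent replicate 3 (0.28 and 0.25) and ADAM10 also without control subconfluent replicate 3 (0.27). Both were also lost with the GC adjustment (0.20 and 0.15). The 2 lower ones were ADAMTS2 (-0.45, adjusted p = 0.038) and SERPINE2, a protease inhibitor (-0.27, adjusted p = 0.0495). ADAMTS2 was not called without 8 of the 12 libraries (-0.47 to -0.34) or with the GC adjustment (-0.34), and SERPINE2 was not called without 11 of the 12 (-0.29 to -0.20). CTSB (cathepsin B, a lysosomal cysteine protease) rose from 859, 879.6 and 865 CPM to 1842, 1905 and 1905 CPM in control and from 1020, 1058 and 1185 CPM to 1764, 1793 and 1785 CPM in sh2. The subconfluent sh2 libraries were higher than the control ones, the overconfluent ones lower, and the difference was -0.39 (standard error 0.07, adjusted p = 0.00018). Of 34 lysosomal genes 5 were lower (14.7%, beside 2.28% of all genes) and none higher by edgeR (8 and 0 at an unadjusted p under 0.05, 5 and 0 by DESeq2), with NPC2 and CTSB having the smallest adjusted p. The count of 5 was 2 without sh2 subconfluent replicate 3, and 3 without control subconfluent replicate 1 or 2, control overconfluent replicate 2 or 3, or sh2 overconfluent replicate 1 or 3.

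Integrin beta 8 (ITGB8), which activates latent TGF-beta, rose from 33.8, 32.3 and 36.3 CPM to 56.98, 53.6 and 49.6 CPM in control and from 27.1, 26.00 and 31.1 CPM to 69.6, 65.5 and 67.7 CPM in sh2, a difference of 0.65 (standard error 0.10, adjusted p = 8.2e-05). ITGA6, a laminin receptor chain, fell in control and rose in sh2 (0.47, adjusted p = 0.00021). ITGAV was at 0.26 (adjusted p = 0.0497), a call lost without 11 of the 12 libraries and under 5 other settings (0.11 to 0.28). With ITGA11 this made 3 of 17 integrins higher (17.6%, beside 2.71% of all genes) and 1 lower (5.88%, beside 2.28%), the latter count being 2 without sh2 subconfluent replicate 1 or sh2 overconfluent replicate 2. Of 14 cadherins 2 were higher (14.3%), N-cadherin (CDH2), which fell less in sh2 (0.34, adjusted p = 0.016, lost without control overconfluent replicate 3 at 0.28), and CDH6 (1.72, adjusted p = 0.0092). All 3 called genes of the 9 tested in the IGF axis (33.3%) were binding proteins and lower, IGFBP4 (-0.61, adjusted p = 2.4e-05), IGFBP6 (-0.53, adjusted p = 0.003) and IGFBP7 (-0.49, adjusted p = 0.0028). IGFBP4 stood at 78.3, 84.3 and 82.00 CPM in subconfluent control and at 115, 119.7 and 138 CPM in subconfluent sh2 libraries, and the overconfluent libraries overlapped (148, 162 and 167 CPM in control and 158, 164 and 148 CPM in sh2). IGFBP4 thus differed between the lines before expansion and not measurably after it.

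In the WNT list of 25 genes WNT11 was higher (4%, beside 2.71% of all genes) and 5 were lower (20%, beside 2.28%), among them the transcription factor LEF1 (-0.62, adjusted p = 0.0012), the feedback inhibitor NKD1 (-0.94, adjusted p = 0.013, lost without sh2 subconfluent replicate 3 at -0.57) and the receptor FZD7 (-0.41, adjusted p = 0.014). The 5 were 3 without control subconfluent replicate 1, control overconfluent replicate 3 or sh2 subconfluent replicate 1, and the higher count was 2 without sh2 subconfluent replicate 2. Of 20 YAP targets, which respond to cell density, 2 were higher and 2 lower (10% each), the lower ones being FOXF2 (-0.98, adjusted p = 1.3e-05) and CCDC80 (-0.55, adjusted p = 5.5e-05). PTPN14 was higher (0.46, adjusted p = 0.0022), whereas MYOF (0.29, adjusted p = 0.0479) was not called without 8 of the 12 libraries (0.22 to 0.31). Of 19 targets of the actin-regulated factor SRF, cytoplasmic gamma-actin (ACTG1) and the myosin light chain MYL9 were lower (10.5%). ACTG1 stood at 2308, 2370 and 2191 CPM and then at 2371, 2470 and 2420 CPM in control, and at 3340, 3484 and 3718 CPM and then 2487, 2487 and 2682 CPM in sh2. Among the 12 libraries the subconfluent sh2 ones stood apart, and the difference was -0.52 (standard error 0.06, adjusted p = 6.6e-07). LFNG was the 1 called gene of 10 in the Notch list (10%) and was higher (0.51, adjusted p = 7.9e-05).

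Immediate early genes and their feedback regulators were called in both directions, 3 of 24 higher (12.5%, beside 2.71% of all genes) and 5 lower (20.8%, beside 2.28%). FOSL1, an AP-1 subunit, stood at 44.7, 46.4 and 46.8 CPM and then at 39.6, 44.1 and 42.8 CPM in control and fell in sh2 from 53.1, 64.8 and 69.6 CPM to 36.6, 34.5 and 35.6 CPM, a difference of -0.67 (standard error 0.11, adjusted p = 8.8e-05). IER3 (-0.52, adjusted p = 0.00044) was lower as well, and KLF6 (0.52, adjusted p = 0.00052) was higher. KLF2 was lower (-0.76, adjusted p = 0.012) but not without control overconfluent replicate 2 or 3 (-0.66 each). The 5 were 2 without control overconfluent replicate 2 and 3 without control subconfluent replicate 1, control overconfluent replicate 3, sh2 subconfluent replicate 3 or sh2 overconfluent replicate 1, and the 3 higher were 1 without overconfluent replicate 3 of either line. Of 32 interferon-stimulated genes 1 was higher (3.12%) and 3 were lower (9.38%). DTX3L was higher (0.40, adjusted p = 0.0015) and IFIT3 (-0.81, adjusted p = 0.0052), IFI6 (-0.44, adjusted p = 0.031) and USP18 (-0.76, adjusted p = 0.044) were lower, 3 that were 1 without any of 6 libraries (replicate 3 of all 4 groups, control overconfluent replicate 2 and sh2 overconfluent replicate 2). IFI6 was also lost with the GC adjustment (-0.33). Of 14 tested cytokines and NF-kB targets 2 were higher and 2 lower (14.3% each). NFKBIA, which holds NF-kB in the cytoplasm, was lower (-0.53, adjusted p = 0.0012), and the other lower one, ICAM1, was called at levels under 0.6 CPM and not without 11 of the 12 libraries (-4.83 to -3.67). The chemokine CCL2 (0.71, adjusted p = 0.019) and LIF (0.34, adjusted p = 0.013) were higher, and neither was called without control subconfluent replicate 2 (0.61 and 0.30) or control overconfluent replicate 3 (0.59 and 0.31), nor CCL2 without sh2 subconfluent replicate 3 (0.55). Of 14 osteoblast genes 2 were higher (14.3%). TNFRSF11B (osteoprotegerin) rose more in sh2, from 9.87, 9.40 and 11.2 CPM to 110, 114 and 132 CPM against 13.1, 14.3 and 15.5 CPM to 106, 108 and 98.6 CPM in control (0.70, standard error 0.11, adjusted p = 7.6e-05). ALPL was the other higher one (1.13, adjusted p = 0.029), and 6 single libraries left only 1 of the 2.

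DNA replication genes had a median response of -0.36 in control and -0.37 in sh2. Of these 34 genes 1 was higher (MCM6) and 1 lower (CCNE1), 2.94% each beside 2.71% and 2.28% of all genes. Of 26 mitosis genes 3 were higher (11.5%), led by MKI67 (0.31, adjusted p = 0.01, not called with an adjustment for transcript length), and 1, PLK1, was lower (3.85%). The higher count of 3 was 1 without control subconfluent replicate 3, control overconfluent replicate 2 or 3, or replicate 3 of either sh2 group. The lower calls of both lists and the MCM6 call were each lost without 6 to 9 of the 12 libraries, and those of MCM6 and PLK1 also with the GC adjustment (0.18 and -0.15). Of 20 p53 targets MDM2 and FAS were higher (10%), a count that was 0 without control subconfluent replicate 1 or 2, control overconfluent replicate 3 or sh2 subconfluent replicate 3, and with the GC adjustment neither was called (0.20 and 0.48) and 1 other member was higher. Of 12 tested FOXO factors and targets 1 was lower (8.33%), BCL6 (-0.45, adjusted p = 0.011), not without control overconfluent replicate 3 (-0.40) or sh2 subconfluent replicate 2 (-0.35). The 2 higher of 15 NRF2 targets (13.3%) were SLC7A11 and ME1, described above. None of 16 antigen presentation genes, 17 protocadherin beta genes or 3 metallothioneins was called by edgeR. At an unadjusted p under 0.05 5 antigen presentation genes were lower, 5 protocadherin beta genes higher and 1 metallothionein lower, and DESeq2 called 1, 0 and 0 of them.

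**Figure D5:**
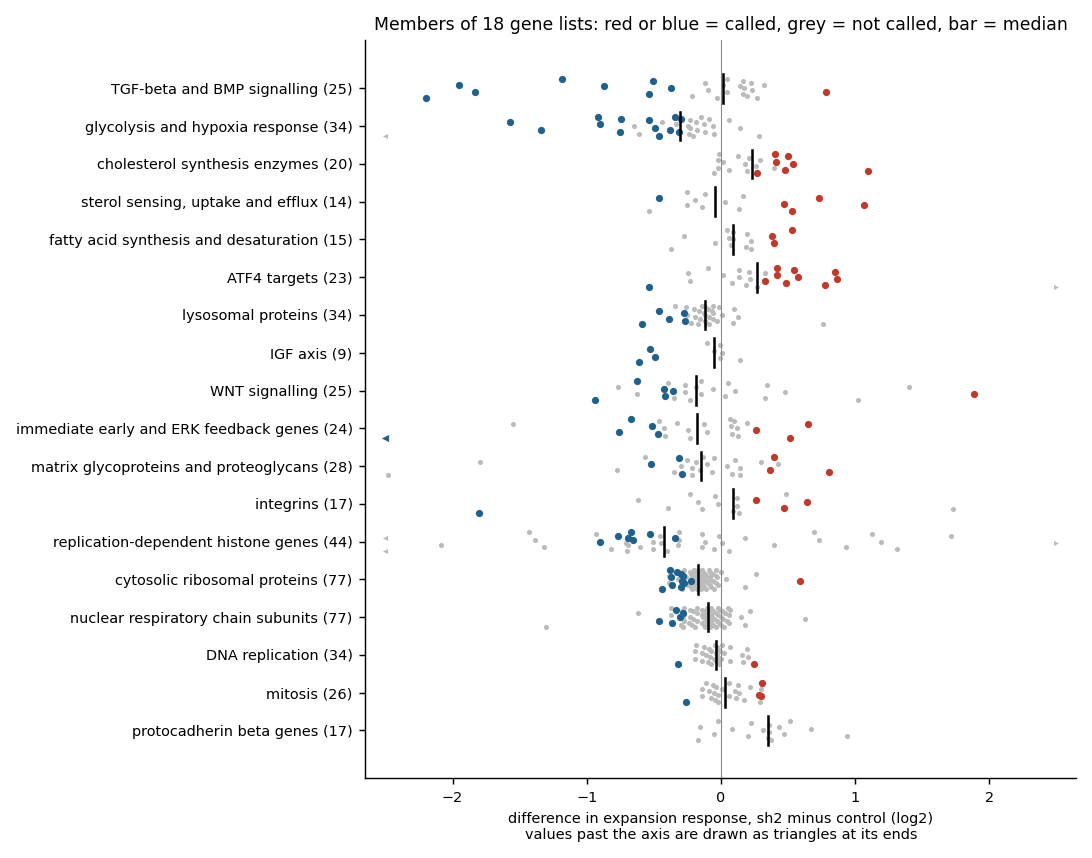
Difference in expansion response (log2, sh2 minus control) of every tested gene in each gene list, one row per list for 18 of the lists (number tested in brackets), with called genes in red (higher) or blue (lower), other genes in grey, a bar at the list median, and values past the axis drawn as triangles at its ends. Called members lie to the left for glycolysis and hypoxia, to the right for cholesterol synthesis and, 1 gene excepted, ATF4 targets, and far to the left for the ID genes of TGF-beta and BMP signalling.

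Histone genes of the replication-dependent clusters, as far as they are seen in poly(A)-selected RNA, were lower for 7 of 44 (15.9%, beside 2.28% of all genes) and higher for none by edgeR (11 and 1 at an unadjusted p under 0.05, 7 and 0 by DESeq2), with a median difference of -0.43 and a median GC content of 56.36%. HIST1H1C, which encodes a linker histone, went from 138, 149 and 118 CPM to 179.9, 199.9 and 198 CPM in control and from 220.4, 228 and 268 CPM to 212, 211 and 211 CPM in sh2, a difference of -0.67 (standard error 0.09, adjusted p = 1e-05). The lines stood apart in subconfluent cells by a log2 change of 0.81. HIST1H2BK (-0.53, adjusted p = 1.2e-05), HIST2H2BE (-0.69, adjusted p = 2.7e-05) and HIST1H2BJ (-0.66, adjusted p = 0.00046) were also lower, and the count was 7 with the GC adjustment. Of 77 cytosolic ribosomal protein genes 11 were lower (14.3%) and 1 higher (RPL26, 1.3%, beside 2.71%), with a median of -0.17. RPL26 was not called with the GC adjustment (0.56) or without 8 of the 12 libraries. The 11 were 2 without control subconfluent replicate 3, control overconfluent replicate 2 or 3 or sh2 overconfluent replicate 1, 4 without sh2 subconfluent replicate 3, 5 without sh2 overconfluent replicate 2, 7 without control subconfluent replicate 1 and 17 without sh2 subconfluent replicate 1. Of 77 nuclear genes of the respiratory chain 5 were lower (6.49%), and 1 to 6 without each library, with 1 without control subconfluent replicate 1, control overconfluent replicate 2 or 3, sh2 subconfluent replicate 3 or sh2 overconfluent replicate 1, 2 without control subconfluent replicate 3, and 3 without replicate 2 of either sh2 group. Of the 13 mitochondrially encoded genes 2 were lower (15.4%), a count that was 5 without sh2 subconfluent replicate 1, 4 without control subconfluent replicate 2, 1 without sh2 overconfluent replicate 3 and 0 without 8 others (all but control overconfluent replicate 2). Of 474 numbered zinc finger genes, whose median GC content was 43.13%, 12 were higher (2.53%, beside 2.71% of all genes) and 6 lower (1.27%, beside 2.28%), both below the share of all genes. The higher count was 6 without control subconfluent replicate 3, control overconfluent replicate 2 or 3 or sh2 subconfluent replicate 3. The lower count was at most 5 with any single library left out. It was 2 without control overconfluent replicate 3 and 3 without control subconfluent replicate 3, sh2 subconfluent replicate 3 or sh2 overconfluent replicate 3.

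The confluent libraries place the differences in time. On the expansion score above, confluent sh2 libraries lay lower than confluent control libraries, and the part of this in the steps was not tested. In a fit of all 18 libraries of the 2 lines, the difference in the response from subconfluent to confluent cells was called for 705 of 21318 genes (3.31%), 432 higher (2.03%) and 273 lower (1.28%). From confluent to overconfluent cells it was called for 857 genes (4.02%), 350 higher (1.64%) and 507 lower (2.38%). The 2 steps share the confluent libraries, so that an error in those libraries moves them in opposite directions, and they were not tested against each other. The ID genes were called in the second step only. Their differences there were -1.73 for ID1, -1.88 for ID3, -1.64 for ID4 and -0.78 for ID2, against -0.11, -0.32, -0.31 and -0.09 in the first. In confluent cells ID3 stood at 188, 150 and 162 CPM in control and at 157, 164 and 172 CPM in sh2, which overlapped. Of the glycolysis and hypoxia genes none was called in the first step by edgeR (3 higher and 3 lower at an unadjusted p under 0.05; DESeq2 was not run on the steps) and 17 were lower in the second (medians 0.07 and -0.31). HK2 was at 0.40 and then -1.30, and ADM at 0.34 and then -1.91.

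Some genes moved in the first step instead. GPR132 fell in control by confluence, to 0.777, 1.10 and 0.387 CPM, and stood at 1.27, 2.21 and 2.24 CPM in confluent sh2 libraries, with a first-step difference of 4.02 (adjusted p = 6.1e-09) and a second of -0.79 (adjusted p = 0.31). SGK1 reached 36.4, 34.7 and 32.7 CPM in confluent control libraries and 18.5, 22.6 and 17.99 CPM in confluent sh2 libraries, a first-step difference of -1.14 (adjusted p = 2e-07). ITGA11 (-2.09) and ACTG1 (-0.59) were called in the first step as well, and F13A1 (1.71) and SLC7A11 (1.02) in the second.

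The other knockdown line, sh1, gives a second difference in response against the same control libraries. The 2 terms share those 6 libraries, so their values are set side by side without a measure of likeness. In the fit of sh1 with control 1520 of 20548 genes were called (7.40%), 928 higher (4.52%) and 592 lower (2.88%). MMP2 was at 0.20 in sh1 and -0.12 in sh2. ID3 was at -2.62 in sh1 and -2.20 in sh2, ID1 at -1.93 and -1.83, ID4 at -2.30 and -1.95, ID2 at -0.58 and -0.87, SMAD6 at -1.14 and -1.18, and NOG at 1.19 and 0.78. HK2 was at -0.90 in sh1 and -0.90 in sh2, and EGLN3 at -1.75 and -1.34. SLC7A11 was at 1.67 in sh1 and 0.86 in sh2, and INSIG1 at 0.41 and 0.73. By list, sh1 had 18 lower and 1 higher of the glycolysis and hypoxia genes (13 and 0 in sh2), 12 higher and 1 lower of the ATF4 targets (9 and 1), 4 higher of the cholesterol enzymes (7), and 6 lower and 3 higher of the TGF-beta and BMP genes (8 and 1). Values on which the lines stood apart included MMP24 (-0.39 in sh1 and 0.53 in sh2), LTBP3 (0.18 and -0.54), IGFBP7 (0.48 and -0.49) and CTSB (-0.08 and -0.39). These were picked after their values were seen, and sh1 was not tested against sh2.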

How the data were processed

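Poly(A)-selected RNA of U2OS lines was sequenced as paired reads. Per the labels and the study's methods, the authors trimmed adapters (Trim Galore 0.6.0), mapped to hg19 (STAR 2.7.3a), filtered alignments with Samtools and deposited raw counts per gene from HTSeq 2.0.0 (union mode, exons, not stranded, minimum quality 10), so that overlapping and antisense genes cannot be told apart. Of all reads 16.85 to 19.1% stood on HTSeq's summary lines and were left out. Of 55882 symbols 35729 were matched to GENCODE genes lifted to hg19, 1861 of them through an older symbol in RefSeq, for positions and for the length and GC content of the longest transcript. Promoter windows were taken from RefSeq (GRCh38.p14).

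The 12 libraries were fitted with edgeR 4.0.16 in R 4.3.3 (quasi-likelihood test, 4 group means, TMM scaling, filterByExpr at a count of 10 and a total of 15). The difference in response was the line by stage contrast, with Benjamini-Hochberg adjusted p under 0.05 over all genes as the threshold. The study's methods tested pairs of groups with DESeq2, which served here (1.42.0) as an alternative. The confluent steps were fitted on 18 libraries and sh1 with control on its own 12. The fit was tested on simulated counts of 20075 genes. Of 200 given a 2-fold difference in the overconfluent sh2 libraries 111 were called (55.5%), and 11 other genes were called. A gene that did not pass the test may thus still differ. Intervals and floors cover counting error only. The labels name replicates but no date or batch, and replicates of a group differed by more than sampling noise (chi-square per degree of freedom 5.106 to 11.26), so each counted as 1 sample.

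The comparison and its gene lists were chosen with earlier results of these data known. Named were MMP2 and CTSB; among called genes with a mean of at least 1 CPM the 12 highest and 12 lowest differences, and up to 5 each way with opposite called responses; and up to 4 called members of a list with the smallest adjusted p, or its defining members. Some genes that this names are not reported here. Where a count was small, the others were named after their values were seen.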

Additional observations from a re-analysis of the deposited data

Results flagged for a closer look

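The test of the difference between the expansion responses of sh2 and control, with edgeR's quasi-likelihood test over all genes, set these results apart. It called 1029 genes. The 12 highest differences on the log2 scale, sh2 minus control, were 3.96 for PRSS1, 3.23 for GPR132, 2.41 for RASSF6, 2.10 for CTC-436P18.3, 1.95 for F13A1, 1.95 for LRRN4, 1.89 for WNT11, 1.87 for PRND, 1.82 for CSF2, 1.81 for C8orf46, 1.80 for RP11-125B21.2 and 1.77 for MUC4. Among the 12 lowest were -5.87 for C6orf99, -2.38 for GRIN2A, -2.20 for ID3, -2.03 for RSPO3, -1.95 for ID4, -1.92 for DHRS3, -1.83 for ID1, -1.80 for ITGA11, -1.79 for C11orf96, -1.77 for PDE3A and -1.76 for ST8SIA1. The values of PRSS1 and C6orf99 depend on the prior count of the fit, since a group of theirs held 1 or 0 counts. Among further genes whose 2 responses had opposite signs and each passed the test, the difference was 1.34 for CTC-459F4.1, 1.14 for RP11-782C8.2, 1.04 for COX10-AS1, -1.64 for BPIFB4, -1.34 for EGLN3 and -1.21 for SGK1. No group had 4 or more libraries, so no library was tested as an outlier within its group.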

How the results depend on the processing

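The count of called differences in response was 1029. It was 989 under median-of-ratios scaling, 1428 by DESeq2, 1123 without a filter on low counts, 1212 for genes reaching 10 counts in each library and 1115 in the fit of all 27 libraries. Without single libraries it was 541 to 1214, the lowest without control overconfluent replicate 3, where 532 of the 541 were shared with the 1029; the cause was not tested. Every call shared between a setting and the 1029 had the same sign. The share of higher calls was 54.32%, and 48.39 to 61.26% over the alternatives. With the replicate number as a replicate block 877 genes were called, 866 of them shared. Same-numbered libraries of different groups correlated at -0.029 to 0.032 and differently numbered ones at -0.031 to 0.034, and 4 of 12 libraries correlated best with their own number, so the numbers were not taken to pair the samples. Adjustments for GC content (1018 calls), transcript length (994) and GC content with the replicate block (953) were chosen after the data were seen. Of 192 genes with values computed by the naming rule and lists, 98 stayed called without each single library and 119 under all 9 other settings, 93 under both. In all 1527 single-gene results outside the omissions kept their side of the threshold and 175 lost it. In the omissions of single libraries 1794 kept it and 510 lost it. No direction was reversed. The expansion counts of both lines stayed within 1.5 times under each setting. With 33778818 to 59374327 counts a library, depth limited mainly genes under 1 CPM.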

Other observations

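Some large gene groups had called differences of opposite sign in the 2 steps of expansion. These steps share the confluent libraries and were not tested against each other. Confluent sh2 libraries also lay lower than confluent control libraries on the expansion score, and the part of this was not tested. Over all genes 2.03% were higher and 1.28% lower in the first step, and 1.64% and 2.38% in the second. Of 77 cytosolic ribosomal protein genes 11 were higher in sh2 from subconfluent to confluent cells and 0 lower by edgeR (35 and 3 at an unadjusted p under 0.05), and from confluent to overconfluent cells 1 was higher and 52 lower, with medians of 0.13 and -0.30. Nuclear genes of the respiratory chain did likewise, with 7 higher and 0 lower of 77 in the first step by edgeR (22 and 2 at an unadjusted p under 0.05) and 0 higher and 23 lower in the second. DESeq2 was not run on the steps. RPL26 had the largest values, 1.54 (adjusted p = 3.1e-07) and then -0.95 (adjusted p = 0.00048). Its confluent levels were 17.97, 13.2 and 19.3 CPM in control and 28.5, 31.1 and 30.7 CPM in sh2. HIST1H1C, a linker histone gene, was at 0.36 (adjusted p = 0.015) and then -1.03 (adjusted p = 7.3e-11), with 147.6, 139.2 and 162.6 CPM in confluent control and 318.6, 344.2 and 342.0 CPM in confluent sh2 libraries. These groups and genes were picked after their values were seen.

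KLF4 and ICAM1 were called with differences of -6.24 (adjusted p = 0.018) and -4.21 (adjusted p = 0.043), but at levels under 0.6 CPM. KLF4 stood at 0, 0 and 0.0288 CPM in subconfluent control libraries, and ICAM1 at 0, 0.0470 and 0.0478 CPM in overconfluent sh2 libraries. Fold changes of these genes depend on the prior count of the fit and are not given as bounds.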
